A study of Mus musculus with 72 samples.

Results

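The genes described here are 10 members of the bone morphogenetic protein (BMP) pathway, followed in mouse embryonic stem cells with and without the nucleoporin Nup133. They comprise the ligands Bmp2, Bmp4 and Bmp7, the targets Id1, Id2, Id3 and Smad6, the extracellular antagonists Nog and Chrd, and the pseudoreceptor Bambi. They were taken by symbol from the 45407 genes to which the Ensembl transcripts of the count tables could be matched, and each is represented by its transcript with the highest total count over the 72 files. All 10 were found, and all 10 passed the filter on low counts that left 18279 genes for testing. The rule goes by gene name and not by the differences tested below.

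The controls (Nup133+/+) were XY lines: HM1, grown as 2 biological replicates, and #1A4, which was derived from a blastocyst and carries a Sox1gfp/+ reporter. The 3 lines without functional Nup133, called KO here, were #14 and #19 (Nup133-/-, XY, made from HM1 by CRISPR/Cas9 editing) and #319 (merm, Nup133merm/merm, Sox1gfp/+). Line 319 is blastocyst-derived and is labelled XX with additional chromosomes 8 and 12, so it differs from its control 1A4 in more than Nup133. Each line is a single line, and a group of genotype and day held 3 samples. Day 0 cells had grown in serum and LIF on mitomycin-inactivated fibroblast feeders of the DR4 strain and were collected after the feeders had been plated off. Day 2 cells had then grown in N2B27 on gelatin, and day 3 cells had in addition received 1 µM all-trans retinoic acid over the last day. The p-values measure the spread between samples of a group after a term for genetic background. Of the 3 controls 2 are cultures of HM1, so spread between control lines is measured little. The days of a line entered the main fit as separate samples.

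BMP ligands are secreted dimers that bind type I and type II serine/threonine kinase receptors, which phosphorylate Smad1, Smad5 and Smad9. These join Smad4 and enter the nucleus, where the Id genes are among their most direct targets. Smad6 is induced by the same signal and inhibits it, Noggin (Nog) and Chordin (Chrd) bind ligands outside the cell, and Bambi resembles a type I receptor without a kinase domain. In mouse embryonic stem cells in serum, BMP signalling works with LIF to hold back differentiation, and its inhibition favours neural fate.

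RefSeq promoter windows on GRCm38.p6 were at hand for 5 of the 10 members (Bmp4, Id2, Id3, Smad6 and Chrd). The 250 bases before the start are printed for 1 ligand, 1 target and 1 antagonist, all of which changed between days in at least 1 genotype. These 3 windows hold no annotated exon. The sequence runs 5′ to 3′ on the gene's strand, at chr14:46390670-46390919 (minus strand) for Bmp4, chr9:64022060-64022309 (minus) for Smad6 and chr16:20732877-20733126 (plus) for Chrd. Capitals mark GTCT or its reverse complement AGAC, the core sequence that Smad proteins bind, and GGCGCC, a palindromic GC-rich sequence bound by Smad1 and Smad5.
Bmp4: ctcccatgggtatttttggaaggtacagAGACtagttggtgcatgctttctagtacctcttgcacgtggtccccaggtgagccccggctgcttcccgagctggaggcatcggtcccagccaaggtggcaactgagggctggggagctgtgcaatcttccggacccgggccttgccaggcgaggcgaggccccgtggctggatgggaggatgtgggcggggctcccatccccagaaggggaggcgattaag
Smad6: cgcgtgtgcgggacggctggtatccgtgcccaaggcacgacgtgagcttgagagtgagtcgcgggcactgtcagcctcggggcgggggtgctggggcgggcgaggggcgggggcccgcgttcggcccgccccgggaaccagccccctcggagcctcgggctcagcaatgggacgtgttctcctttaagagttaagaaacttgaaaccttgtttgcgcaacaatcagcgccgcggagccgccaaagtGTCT
Chrd: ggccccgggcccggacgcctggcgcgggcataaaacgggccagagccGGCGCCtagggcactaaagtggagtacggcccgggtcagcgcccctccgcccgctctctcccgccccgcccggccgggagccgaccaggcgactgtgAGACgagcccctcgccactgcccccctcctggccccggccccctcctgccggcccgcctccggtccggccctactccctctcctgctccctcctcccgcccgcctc
The Smad core occurred once in each of the 3 windows, searched on both strands, and GGCGCC occurred once, in that of Chrd. Of 32851 promoter windows of the same 250-base length, 82.9% held the Smad core and 9.6% held GGCGCC, and the 2 motifs do not overlap in these windows. Another motif, AGGTCA (or TGACCT), the half-site of retinoic acid receptors, was in none of the 3 windows and in 14.0% of all. Matches of letters are a description of the windows and not evidence of binding.

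Nup133 (chr8:123897123-123949265) stood between 14.3 and 37.1 CPM (counts scaled to 1000000 per sample, with TMM factors) in the 9 KO samples and between 179.5 and 323.4 CPM in the 9 control samples, in accord with the labels. Depth ran from 16.5 M to 54.4 M gene counts per sample. Line 19 at day 2 had the fewest counts and stood apart from the other samples: it lay at 110.9 on the second principal component, against 35.3 to 57.3 for the other day 2 samples, and 10.12% of its counts fell on 1 gene, Gm42418. Log2 fold changes between genotypes at day 2 are given also without it for Bmp2, Nog and those printed here that it moved by over 1.5 times. Embryonic stem cell markers were present as labelled. Their sum was higher in KO than in control samples on day 0 (4586 to 5788 against 4051 to 4452 CPM), with 0 of 7 markers called. It overlapped on day 2 (1198 to 1494 against 1200 to 1240 CPM) and on day 3 (278.4 to 619.6 against 487.6 to 572.2 CPM). Markers of other cells were also present. The sum of 11 feeder fibroblast markers was lower in KO than in control samples at day 2 (90.02 to 121.6 against 167.5 to 237.1 CPM) and at day 3 (130.9 to 214.7 against 250.6 to 369.5 CPM). The markers did not move as 1 list: 5 of 11 had a lower KO mean at day 2 and 7 of 11 at day 3, and Postn, Acta2 and Tagln were called lower at both days. At day 3 Col3a1 (1.09 ± 0.35, adjusted p = 0.0821) and Prrx1 (0.77 ± 0.31, adjusted p = 0.152) had positive log2 fold changes. At day 0 the KO samples also had lower sums of 5 mesoderm markers (18.21 to 20.85 against 51.98 to 103.4 CPM) and of 6 trophoblast or surface ectoderm markers (22.31 to 40.58 against 118 to 306.7 CPM). In these lists 4 of 5 and 6 of 6 markers had a lower KO mean, and 2 of each were called lower. The feeder sums overlapped at day 0 (108.7 to 183 against 157.8 to 329.9 CPM), with 10 of 11 feeder markers at a lower KO mean and 0 called. Mesoderm sums overlapped at day 2 (6.935 to 24.63 against 12.93 to 25.36 CPM). They were lower in KO samples at day 3 (6.385 to 9.287 against 9.577 to 12.52 CPM), with 3 of 5 markers at a lower KO mean and 1 called lower. The part of these day 3 sums in the member values of that day was not tested. Epiblast-like sums at day 2 (2320 to 3654 against 3139 to 3500 CPM) and neural progenitor sums at day 3 (260.8 to 894.4 against 292.1 to 346.4 CPM) overlapped. The neural sums of lines 14 and 19, 596.6 and 894.4 CPM, lay above every control, and line 319 held 260.8 CPM. Of the 5 neural markers, 2 had a lower KO mean at day 3 and 1 was called higher. Primitive endoderm sums at day 3 did not overlap (61.41 to 65.86 in KO against 52.6 to 59.83 CPM in controls). That list was split: 3 of its 6 markers had a lower KO mean at day 3, and 1 was called higher. No marker of these lists was at 0 in all samples of a group.

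Bmp2 and Nog were the members called between KO and control samples in the main fit. Each of these calls was lost in some alternatives, given below. Bmp2 was lower in KO cells at day 0 and day 2, and Nog at day 2. At day 3 no member passed the test, although 8 of 10 had a negative log2 fold change. By number, 1 of 10 members was called at day 0 (0.853% of all genes tested, 0.788% lower in KO), 2 of 10 at day 2 (1.6%, with 0.963% lower in KO) and 0 of 10 at day 3 (5.18%), with edgeR's quasi-likelihood test at an adjusted p below 0.05. At day 3, 6 of 10 members had an unadjusted p below 0.05, as did 4005 of all 18279 genes, and DESeq2 called 3 members and 2065 genes in all. The median log2 fold change of the members was -0.17, -0.38 and -0.57 at days 0, 2 and 3, beside 0.01, 0.02 and 0.02 over all genes. In bulk RNA, fewer cells of a type and less RNA per cell cannot be told apart.

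The samples were also compared without a model. At day 0, the 3 KO samples lay below the 3 controls for 2 of 10 members (Bmp2 and Id1), where 9.7% of all genes had that separation. At day 2 it was 3 members (Bmp2, Smad6 and Nog; 11.7% of all genes). It was 7 members at day 3 (Bmp2, Bmp4, Bmp7, Smad6, Nog, Chrd and Bambi; 17.6% of all genes). No member had all KO samples above all controls at any day, where 8.06%, 9.93% and 17.6% of all genes did. The medians and separations describe genes that were chosen by pathway with earlier results of these samples known.

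**Figure D1:**
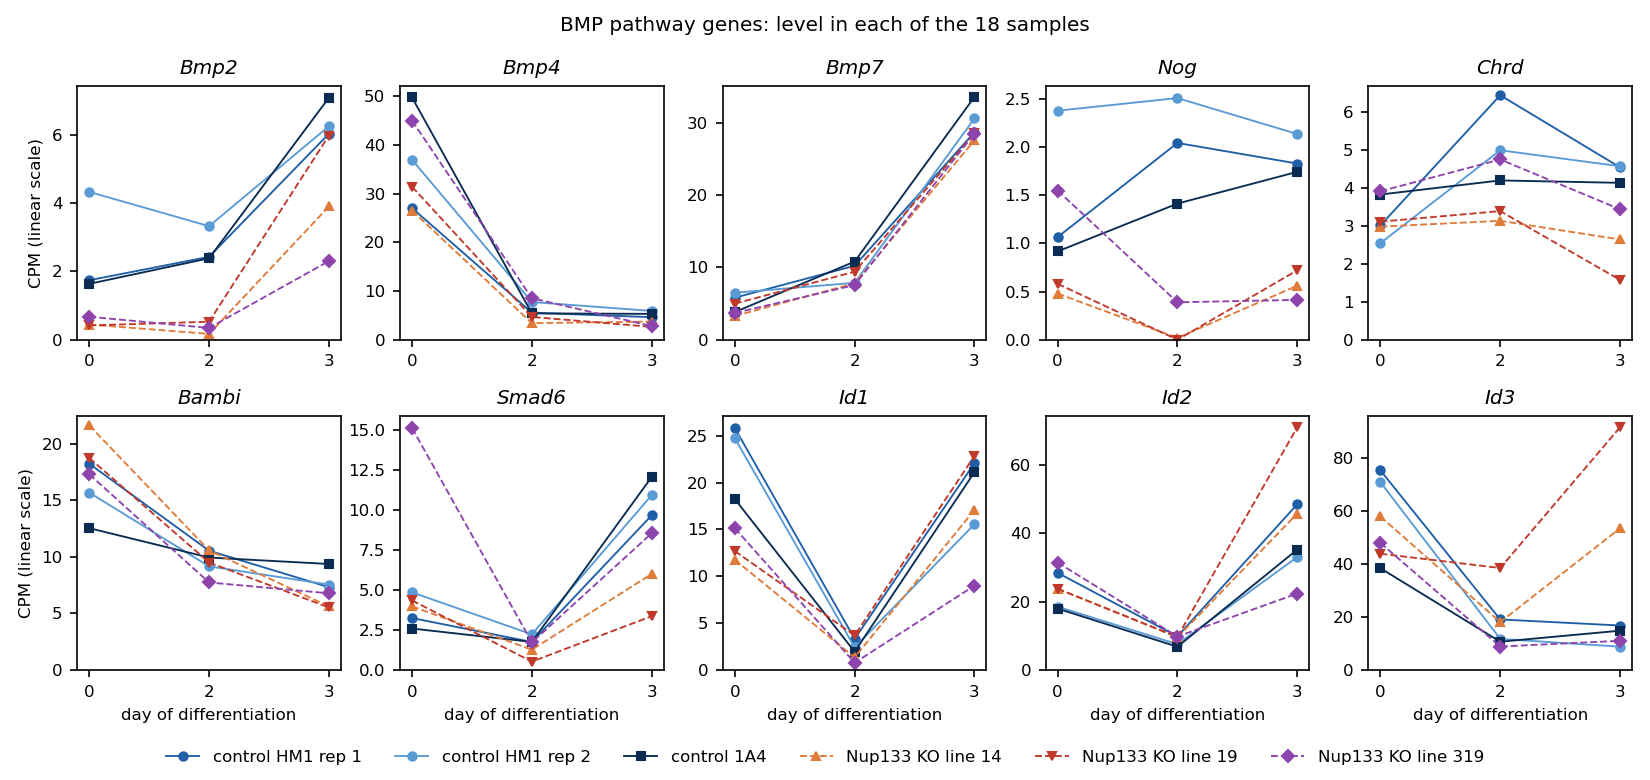
Level of each member in CPM (linear vertical axis from 0, different for each gene) at days 0, 2 and 3; lines join the samples of 1 series of cells, solid for controls and dashed for KO lines. Bmp2 is lower in every KO line at days 0 and 2, Nog is at or near 0 in lines 14 and 19 at day 2, and Id3 is high in lines 14 and 19 at day 3 and not in line 319.

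Bmp2 (chr2:133552159-133562885, plus strand, 3 exons) encodes a ligand with roles in heart, bone and extraembryonic development. At day 0 its level was 1.74, 4.33 and 1.64 CPM in HM1 replicate 1, HM1 replicate 2 and 1A4, and 0.45, 0.42 and 0.67 CPM in lines 14, 19 and 319. Every KO sample lay below every control, and HM1 replicate 2 stood well above the other controls. The log2 fold change was -2.27 ± 0.45 (SE; adjusted p = 0.0217). At day 2 the controls held 2.43, 3.32 and 2.38 CPM and the KO lines 0.17, 0.53 and 0.35 CPM, which is 7 to 9 counts per KO library against 108 to 143 counts in the controls. The log2 fold change was -3.14 ± 0.51 (adjusted p = 0.00824), and -3.47 (adjusted p = 0.00915) without line 19 at day 2.

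The lower level of Bmp2 was not kept at day 3 as a call. Controls then held 6.03, 6.24 and 7.08 CPM and lines 14, 19 and 319 held 3.90, 5.97 and 2.30 CPM. Line 19 lay just under the lowest control, and the log2 fold change was -0.71 ± 0.40 (adjusted p = 0.321). From day 2 to day 3, Bmp2 rose by 1.27 ± 0.40 on the log2 scale in controls (adjusted p = 0.0345) and by 3.69 ± 0.51 in KO lines (adjusted p = 8.49e-05). The difference between those rises was 2.42 ± 0.64 and did not pass the test (adjusted p = 0.299), though it did with DESeq2 (adjusted p = 0.032). The day 0 call was lost without control replicate 1 (HM1 replicate 1, adjusted p = 0.0761), control replicate 2 (HM1 replicate 2, log2 fold change -1.71, 0.328), line 14 (0.144) or line 19 (0.0586), and with day 0 fitted alone (0.09). The day 2 call was lost without HM1 replicate 1 (0.0505) or with day 2 fitted alone (0.265), a fit in which no gene at all was called. Beside the lower Bmp2, the feeder sums at day 2 and the mesoderm and ectoderm sums at day 0 were lower and the stem cell sum at day 0 was higher in KO samples, as given above, and their part in the Bmp2 difference was not tested.

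Bmp4 (chr14:46383520-46390669, minus strand, 4 exons), the ligand best known for mesoderm induction and for its role in stem cell self-renewal in serum, was the most abundant of the 3 member ligands at day 0. It stood at 37.9 ± 11.4 CPM in controls (SD, n = 3) and 34.3 ± 9.56 CPM in KO lines at that day, and at 6.23 ± 1.31 and 5.53 ± 2.66 CPM at day 2. Its fall from day 0 to day 2 passed the test in both genotypes, at -2.56 ± 0.30 in controls (adjusted p = 1.6e-05) and -2.66 ± 0.30 in KO lines (adjusted p = 1.07e-05). Controls at day 3 held 4.63, 5.91 and 5.31 CPM and lines 14, 19 and 319 held 3.73, 2.64 and 2.82 CPM. The groups did not overlap, but the log2 fold change of -0.77 ± 0.29 missed the threshold (adjusted p = 0.134). Bmp4 shares 89 exon bases with Gm15217 on the other strand, which held 6 counts in all.

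Bmp7 (chr2:172868012-172940321, minus strand, 7 exons), a ligand that acts in kidney and eye development, rose over the course in both genotypes. Its level in controls was 5.39 ± 1.39, 9.65 ± 1.56 and 31.0 ± 2.46 CPM on days 0, 2 and 3, and that in KO lines 4.0 ± 0.889, 8.27 ± 1.01 and 28.2 ± 0.552 CPM. Its rise from day 2 to day 3 was 1.68 ± 0.21 on the log2 scale in controls and 1.78 ± 0.21 in KO lines (adjusted p = 4.83e-05 and 2.68e-05). The KO samples at day 3 lay between 27.59 and 28.56 CPM, just under the lowest control at 28.71 CPM, and the difference was -0.14 ± 0.20 (adjusted p = 0.756). Per kilobase of transcript, the highest of the 3 member ligands changed from Bmp4 (18.4 CPM per kb in day 0 controls, against 1.47 for Bmp7) to Bmp7 (8.44 at day 3, against 2.56 for Bmp4 and 1.81 for Bmp2). The order of the means was the same in KO lines (7.69, 1.49 and 1.142 CPM per kb at day 3). In line 19 at that day, however, Bmp2 (1.68) lay above Bmp4 (1.281). Gdf3, a ligand of the same superfamily outside the members, stood above all 3, at 52.9 CPM per kb in controls at day 0 and 13.96 at day 3.

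**Figure D2:**
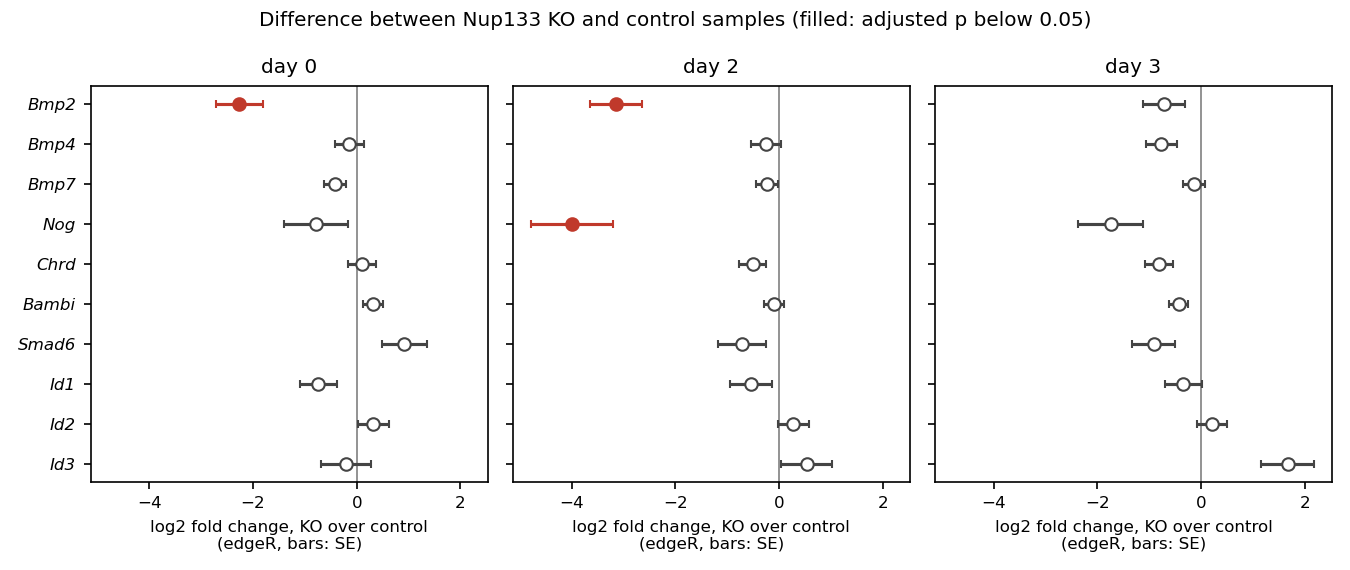
Log2 fold change of KO over control samples at days 0, 2 and 3 for each member (horizontal axis), with bars of 1 SE; filled points passed an adjusted p of 0.05. Bmp2 at days 0 and 2 and Nog at day 2 are filled, and Id3 at day 3 is the value farthest to the right, at 1.67.

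The Id genes encode helix-loop-helix proteins without a DNA-binding part, which block the factors that drive differentiation. Id1 (chr2:152736251-152737410, plus strand, a single exon in the counted transcript) had 25.8, 24.7 and 18.2 CPM in day 0 controls and 11.8, 12.7 and 15.1 CPM in lines 14, 19 and 319. The KO samples lay below the controls, but the log2 fold change of -0.74 ± 0.36 did not pass the test (adjusted p = 0.497). At day 2 the levels were 3.33, 2.42 and 1.96 against 1.35, 3.69 and 0.78 CPM, and at day 3 22.1, 15.6 and 21.1 against 17.1, 22.8 and 9.002 CPM, with overlap of the groups at both days. The log2 fold changes were -0.54 ± 0.40 (adjusted p = 0.468; -1.19, adjusted p = 0.0959, without line 19 at day 2) and -0.35 ± 0.36 (adjusted p = 0.631). Id1 had the largest swing between days of the 10 members in the controls: it fell by 3.16 ± 0.39 on the log2 scale from day 0 to day 2 and rose by 2.98 ± 0.39 to day 3. In KO lines the fall was 2.96 ± 0.41 and the rise 3.17 ± 0.41, and all 4 changes passed the test (adjusted p from 2.84e-05 to 7.51e-05).

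Id2 (chr12:25093801-25096092, minus strand, 3 exons) lies on chromosome 12, of which line 319 is labelled to have an extra copy. It fell and rose like Id1, with a smaller fall: -1.42 ± 0.30 to day 2 and 2.27 ± 0.31 to day 3 in controls, and -1.46 ± 0.30 and 2.20 ± 0.31 in KO lines (adjusted p from 0.000101 to 0.00199). Controls at day 3 held 48.5, 33.1 and 35.3 CPM and lines 14, 19 and 319 held 45.8, 71.0 and 22.4 CPM. Line 319 was the lowest and line 19 the highest of the 6, so the KO lines lay on both sides of the controls. Neural progenitor sums at day 3 were also lowest in line 319 and highest in line 19, and their part in the Id2 values was not tested. No difference between genotypes passed the test (log2 fold changes 0.32, 0.28 and 0.21 at the 3 days, adjusted p from 0.633 to 0.843).

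Id3 (chr4:136143497-136145392, plus strand, 3 exons) had its highest day 3 levels in the edited HM1 lines. Its day 0 level was 75.5, 71.0 and 38.5 CPM in controls and 58.1, 44.0 and 48.1 CPM in lines 14, 19 and 319. At day 2 it was 19.1, 11.8 and 10.7 against 18.1, 38.6 and 8.90 CPM, with line 19 the highest (log2 fold change 0.53, and 0.03 without that sample). At day 3 the controls held 16.8, 8.85 and 14.9 CPM, whereas lines 14, 19 and 319 held 53.6, 91.8 and 11.1 CPM. Lines 14 and 19 were thus above every control, while line 319 lay within the control range. Neural progenitor sums of lines 14 and 19 were also above every control at that day, and their part in the Id3 values was not tested. The log2 fold change at day 3 was 1.67 ± 0.51, which missed the threshold (adjusted p = 0.0678).

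With line 319 left out it was 2.26 and passed (adjusted p = 0.00573), as it did in HM1-derived lines alone (2.49, adjusted p = 0.0153), with DESeq2 (1.68, adjusted p = 0.0102) and without line 19 at day 2 (1.71, adjusted p = 0.0304). Against the control of their own background, the log2 CPM differences of Id3 at day 3 were 2.13 in line 14, 2.90 in line 19 and -0.43 in line 319. The 2 HM1 replicates differed by 0.92. From day 0 to day 2, Id3 fell by 2.10 ± 0.50 in controls (adjusted p = 0.00428) and by 1.37 ± 0.50 in KO lines (adjusted p = 0.0413). The KO fall lost its call without control replicate 1 (HM1 replicate 1; adjusted p = 0.0842), line 14 (0.196) or line 319 (log2 fold change -0.85, 0.12), and with no filter, no background term or HM1-derived lines only (0.119 to 0.137).

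Smad6 (chr9:63953076-64022059, minus strand, 4 exons) encodes the inhibitory Smad that blocks BMP receptors. At day 0 it stood at 3.25, 4.85 and 2.59 CPM in controls and at 3.98, 4.35 and 15.1 CPM in lines 14, 19 and 319. Line 319 held several times the level of the other 5 samples, which overlapped each other. The log2 fold change was 0.92 ± 0.43 (adjusted p = 0.473). At day 2 the controls held 1.75, 2.23 and 1.76 CPM and the KO lines 1.27, 0.53 and 1.73 CPM, and at day 3 they held 9.66, 10.9 and 12.1 against 5.998, 3.36 and 8.54 CPM. The KO samples lay below the controls at both days, line 319 at day 2 by a small margin only.

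The day 3 log2 fold change of Smad6, -0.92 ± 0.42, did not pass the test (adjusted p = 0.215), but it did without line 319 (-1.26, adjusted p = 0.0324) and with day 3 fitted alone (-0.92, adjusted p = 0.048). Smad6 fell from day 0 to day 2 by 2.57 ± 0.47 in KO lines (adjusted p = 0.000584). In controls its value was -0.94 ± 0.43 (adjusted p = 0.106), which passed with the days paired by series of cells (-0.88, adjusted p = 0.0342). From day 2 to day 3 it rose by 2.48 ± 0.44 in controls and by 2.27 ± 0.46 in KO lines (adjusted p = 0.00101 and 0.00177).

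Nog (chr11:89300638-89302332, minus strand, a single exon) encodes Noggin, which binds BMP2, BMP4 and BMP7 and keeps them from their receptors. At day 0 it was low, with 1.07, 2.38 and 0.92 CPM in controls and 0.48, 0.58 and 1.55 CPM in lines 14, 19 and 319, and the groups overlapped through line 319. At day 2 the controls held 2.04, 2.51 and 1.41 CPM and the KO lines 0.02, 0 and 0.39 CPM, or 1, 0 and 9 counts. Every KO sample was below every control, and lines 14 and 19 were all but without Nog reads. The log2 fold change was -3.99 ± 0.79 (adjusted p = 0.0207), and -3.68 (adjusted p = 0.0405) without line 19 at day 2. Taking 3 counts as the floor of a library, Nog was at least 10.1-fold lower in line 19 than in the HM1 mean of 2.28 CPM. The ratio for the 1 count of line 14 was 120 (21.5 to 4730, 95% exact Poisson interval of that count, which covers counting error only).

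The call on Nog at day 2 was lost without HM1 replicate 1 (adjusted p = 0.162), HM1 replicate 2 (0.146), line 14 (log2 fold change -3.05, 0.0581) or line 19 (0.0505), and with day 2 fitted alone (0.401). Without line 319 it was -6.93 (adjusted p = 0.000377). At day 3 the controls held 1.83, 2.14 and 1.74 CPM and the KO lines 0.56, 0.72 and 0.41 CPM. The groups lay clearly apart, but the log2 fold change of -1.75 ± 0.62 missed the threshold (adjusted p = 0.111), and 4 alternatives brought it under (DESeq2, HM1-derived lines only, day 3 alone and without line 319; adjusted p from 0.0116 to 0.0415). Within KO lines Nog fell from day 0 to day 2 by 2.78 ± 0.80 (adjusted p = 0.0138). That fall was lost without line 14 (adjusted p = 0.084), and the value in controls was 0.43 ± 0.58 (adjusted p = 0.605). From day 2 to day 3 in KO lines its value was 2.168 ± 0.828 (adjusted p = 0.0543), which passed with the days paired by series (2.42, adjusted p = 0.0251). The sums of feeder markers at days 2 and 3 and of mesoderm markers at day 3 were lower in KO samples, as given above, with 3 of 11 feeder markers called at each day. Their part in the Nog difference was not tested.

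Chrd (chr16:20733127-20742384, plus strand, 24 exons) encodes Chordin, the other secreted BMP antagonist among the members. It shares 154 exon bases with Thpo on the other strand, whose reads cannot be set apart unless the counting used strand, which the sources used here do not give. At day 2 the controls held 6.45, 5.00 and 4.20 CPM and lines 14, 19 and 319 held 3.14, 3.39 and 4.75 CPM. At day 3 the levels were 4.55, 4.58 and 4.14 against 2.64, 1.58 and 3.44 CPM, with every KO sample below every control. The log2 fold change at day 3 was -0.81 ± 0.27 and missed the threshold (adjusted p = 0.0873). It passed in 4 alternatives (DESeq2, HM1-derived lines only, without line 319 and without line 19 at day 2; adjusted p from 0.0306 to 0.0489). In controls Chrd rose by 0.77 ± 0.27 from day 0 to day 2 (adjusted p = 0.034), a call that was lost without HM1 replicate 1 (0.303), HM1 replicate 2 (0.239) or line 14 (0.0605), and with no filter, the longest transcript or no background term (0.0575 to 0.0735). The KO lines gave 0.16 ± 0.27 for the same step (adjusted p = 0.666).

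Bambi (chr18:3507923-3516404, plus strand, 3 exons), whose product binds ligand without passing on a signal, fell over the course. Controls went from 15.5 ± 2.85 to 9.88 ± 0.693 and 8.08 ± 1.12 CPM, and KO lines from 19.2 ± 2.19 to 9.27 ± 1.43 and 5.97 ± 0.697 CPM. Its fall from day 0 to day 2 was 0.64 ± 0.19 in controls (adjusted p = 0.0149) and 1.05 ± 0.19 in KO lines (adjusted p = 0.000598). At day 3 the KO samples held 5.62, 5.53 and 6.78 CPM, under the lowest control at 7.32 CPM, and the log2 fold change was -0.44 ± 0.19 (adjusted p = 0.194). The control fall lost its call without HM1 replicate 1 (0.166) or HM1 replicate 2 (0.157) or with no filter (0.0625). The fall of 0.63 ± 0.19 from day 2 to day 3 in KO lines (adjusted p = 0.0206) was lost without HM1 replicate 2 (0.0565), line 14 (0.17) or line 19 (0.0759) or with no filter (0.0709).

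**Figure D3:**
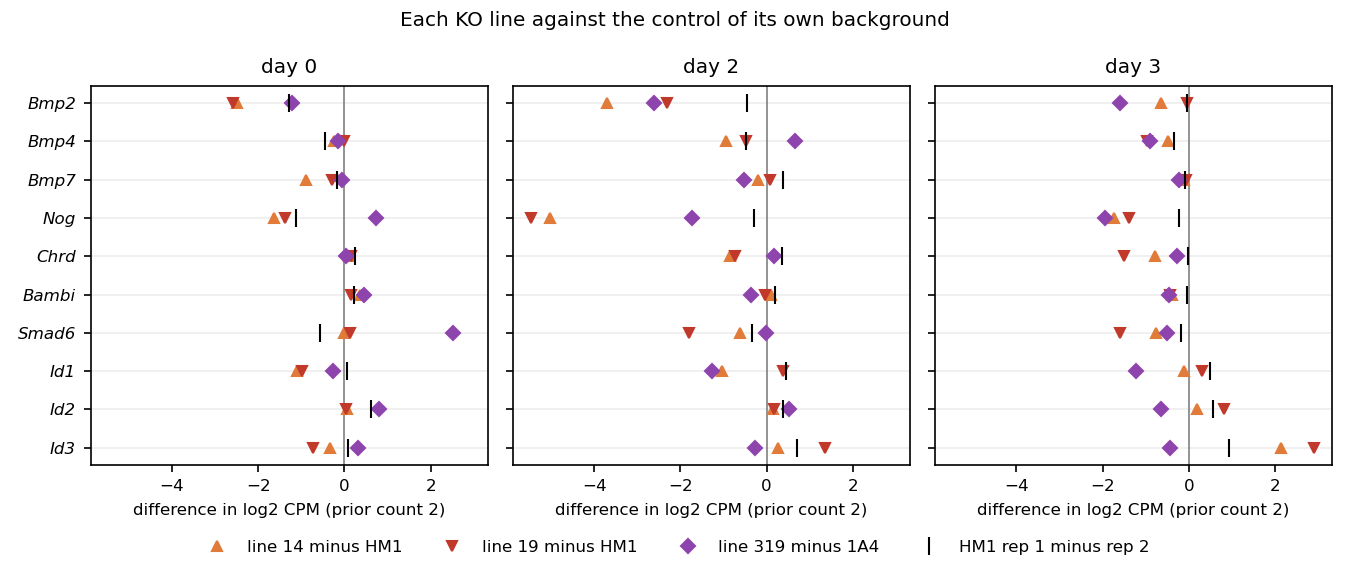
Difference in log2 CPM (prior count 2) of each KO line from the control of its own background at days 0, 2 and 3, with the difference between the 2 HM1 replicates as a black bar. Id3 at day 3 lies at 2.13 and 2.90 in lines 14 and 19 and at -0.43 in line 319, Smad6 at day 0 stands at 2.52 in line 319 alone, and the Nog points of lines 14 and 19 at day 2 rest on 1 and 0 counts.

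Whether the KO difference itself differed between backgrounds was tested as (319 minus 1A4) minus (the mean of 14 and 19 minus HM1). No member was called at day 0, day 2 or day 3 (0.968%, 0.547% and 0.0219% of all genes), with 2, 3 and 2 members at an unadjusted p below 0.05, beside 2439, 2764 and 1668 of 18279 genes. Each blastocyst-derived group had 1 sample, assumed to vary like the others. The largest values were 5.11 ± 1.13 for Nog at day 2 (adjusted p = 0.0873), -2.92 ± 0.75 for Id3 at day 3 (adjusted p = 0.226) and 2.50 ± 0.62 for Smad6 at day 0 (adjusted p = 0.101). These 3 passed with no filter on low counts (adjusted p = 0.000908, 3.9e-08 and 0.000206), where 1039, 465 and 728 genes were called at those days. Without line 19 at day 2, a fit that leaves 1 HM1-derived KO sample at that day, the values were 4.85, -2.93 and 2.50. Calls in this test depended on the filter and on that sample, among all genes as among the members. Without line 14 or line 19 the test rests on the HM1 control pair alone. Some member values were called in those fits, beside far more of all genes than in the main fit, and they are not counted here.

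Most members changed between days in both genotypes, with a median log2 fold change in controls of -0.79 from day 0 to day 2 and 0.66 from day 2 to day 3, beside 0.01 and 0.00 over all genes. From day 0 to day 2, 7 of 10 changed in controls (Bmp7 and Chrd higher; Id1, Id2, Id3, Bmp4 and Bambi lower), where 19.7% of all genes rose and 15.5% fell (35.2% in all). In KO lines 8 of 10 changed (Bmp7 higher; Id1, Id2, Id3, Bmp4, Bambi, Smad6 and Nog lower), where 20.8% of all genes rose and 15.1% fell (35.9% in all). Without HM1 replicate 1, 4 of 10 were called in controls, and the calls over all genes went from 6439 to 2831. From day 2 to day 3, 5 of 10 rose in controls and none fell (Bmp2, Bmp7, Id1, Id2 and Smad6), beside 12.5% and 8.92% of all genes (21.4% in all), and in KO lines Bmp2, Bmp7, Id1, Id2 and Smad6 rose and Bambi fell, beside 17.7% and 16% of all genes (33.6% in all). The rise of Bmp2 in controls lost its call without HM1 replicate 1, HM1 replicate 2 or 1A4 (0.0914 to 0.191) and in HM1-derived lines only (0.105). The rise of Bmp7 from day 0 to day 2 in controls (0.84 ± 0.21, adjusted p = 0.00596) was lost without HM1 replicate 1 (0.0688) or 1A4 (0.0957) and in HM1-derived lines only (0.0753). All samples of a day were collected in 1 condition of medium, so the day and the medium cannot be told apart.

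**Figure D4:**
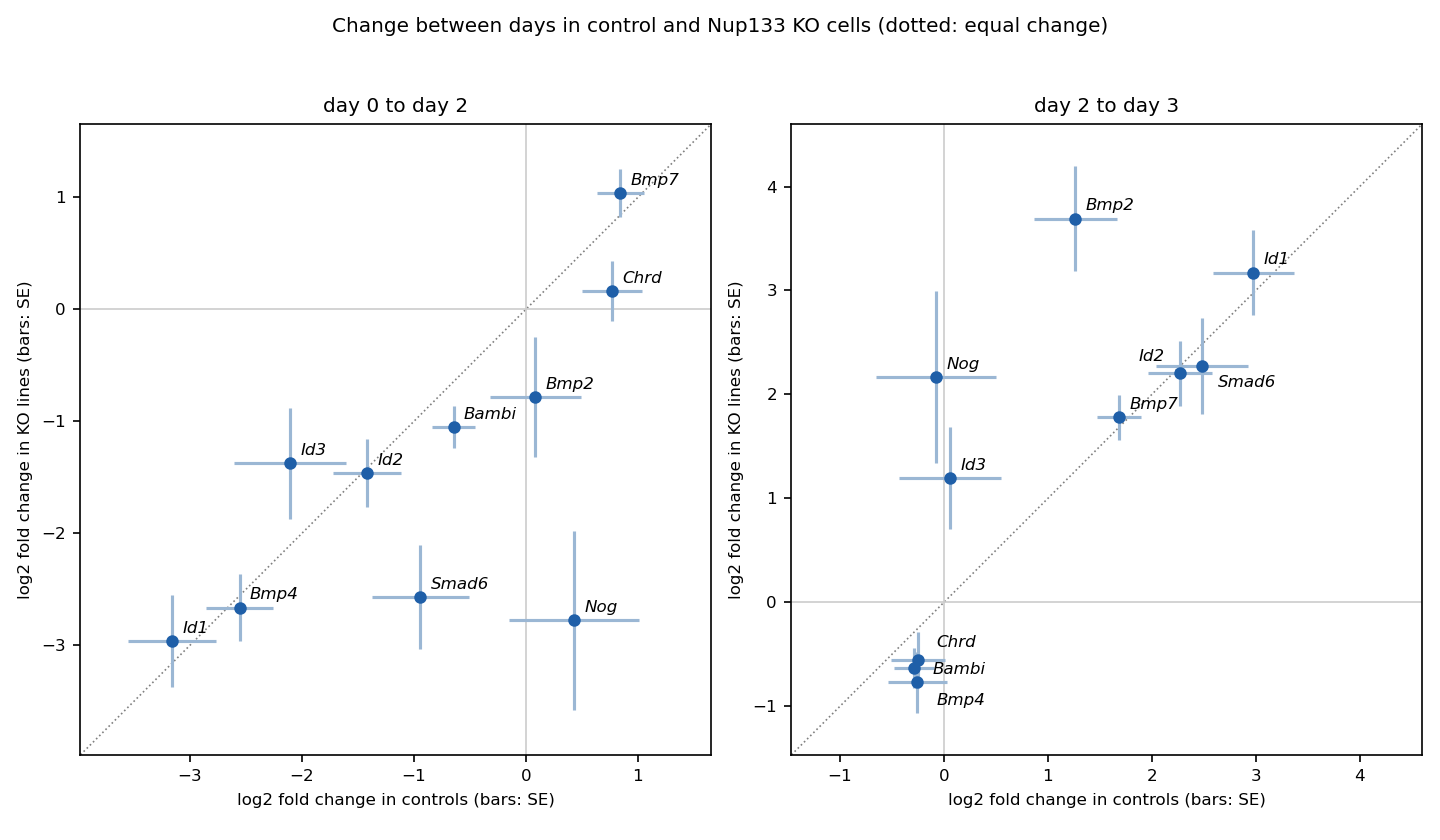
Log2 fold change between days in controls (horizontal axis) and KO lines (vertical axis), with bars of 1 SE; a point on the dotted line changed equally in both. From day 0 to day 2, Nog and Smad6 lie below the line, and from day 2 to day 3 Bmp2 and Nog lie above it, none of them past the test of the difference.

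The change of the KO difference between days passed the test for no member. From day 0 to day 2 it was -3.21 ± 1.00 for Nog (adjusted p = 0.494) and -1.63 ± 0.63 for Smad6 (adjusted p = 0.585), and 0.0219% of all genes were called. From day 2 to day 3 it was 2.42 ± 0.64 for Bmp2, given above, and 2.24 ± 1.02 for Nog (adjusted p = 0.557; 0.0383% of all genes). From day 0 to day 3 it was 1.87 ± 0.70 for Id3 (adjusted p = 0.31) and -1.84 ± 0.60 for Smad6 (adjusted p = 0.224; 0.427% of all genes). By number, 2, 2 and 5 of 10 members had an unadjusted p below 0.05 in these 3 tests, beside 1308, 1626 and 1986 of 18279 genes. Without line 319, Id3 from day 0 to day 3 (2.63, adjusted p = 0.0304) and Nog from day 2 to day 3 (5.15, adjusted p = 0.0197) passed.

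Summed by role and per kilobase of transcript, the levels give the balance of the members. The 3 Id genes summed to 85.1 ± 22.5 CPM per kb in controls and 71.3 ± 6.25 in KO lines at day 0, then to 19.4 ± 5.41 and 26.4 ± 13.2, and on day 3 to 58.1 ± 12.0 and 91.4 ± 56.7. The 3 ligands summed to 20.5 ± 5.22 and 17.8 ± 4.67, 6.41 ± 0.365 and 5.03 ± 1.23, and 12.8 ± 0.988 and 10.3 ± 0.484 CPM per kb at the same days. The antagonists Nog and Chrd together stood at 1.77 ± 0.334 (controls) and 1.48 ± 0.495 (KO) CPM per kb on day 0, 2.69 ± 0.555 and 1.17 ± 0.381 on day 2, and 2.41 ± 0.18 and 1.08 ± 0.182 on day 3. Samples of the genotypes overlapped for the antagonist sum at day 0 (1.51 to 2.14 against 1.15 to 2.05) and did not at day 2 (2.06 to 3.08 against 0.924 to 1.61) or day 3 (2.23 to 2.59 against 0.885 to 1.25). For the ligands they did not overlap at day 3 (11.8 to 13.7 against 9.79 to 10.7). The Id sum overlapped at day 3 (46.4 to 70.4 against 34 to 147).

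In the order of levels per kilobase, Id3 led in day 0 controls with 48.3 CPM per kb, above Id1 (19.8), Bmp4 (18.4) and Id2 (17.1), whose sample ranges overlapped. Bambi followed at 3.05, and Bmp7, Smad6, Chrd, Nog and Bmp2 came last, from 1.47 down to 0.722 CPM per kb, each overlapping the next. In day 0 KO lines Bmp2 stood alone at the end, at 0.144 CPM per kb, its samples below all those of Nog (0.513). At day 2, Nog (0.0802) and Bmp2 (0.0979) were the lowest of the KO lines and overlapped each other, whereas in controls Smad6 (0.644) was the lowest. Controls at day 3 were led by Id2 (30.7), Id1 (16.9) and Id3 (10.6). The KO lines were led by Id3 (40.8), Id2 (36.5) and Id1 (14.1), each overlapping the next.

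Over the 18 samples, log2 CPM of Bmp4 and Bambi correlated at Pearson r = 0.85, Id1 and Id2 at 0.846, Bmp7 and Bambi at -0.839 and Bmp4 and Bmp7 at -0.806. These values describe samples that share lines and days. Genes with clone, predicted or mitochondrial names were left out of the next comparison. Among the 13078 genes kept, whose mean reached 1 CPM, the pattern of Id1 was most like that of Rnd1 (r = 0.942), S1pr1 (0.934), Ap1m1 (0.922), Ndrg3 (0.916) and Golga2 (0.914). That of Bmp4 was most like Manba (0.97), Lrrc34 (0.97), Rab27a (0.969), the stem cell gene Zfp42 (0.966) and Usp48 (0.965).

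Of the receptors and Smads that carry the signal, 0 of 12 receptors and co-receptors tested and 0 of 13 Smads and their regulators were called between genotypes at any day, where 0.853%, 1.6% and 5.18% of all genes were. Lists of this size would hold few calls at those shares. At an unadjusted p below 0.05 there were 1, 5 and 2 receptors and 1, 2 and 2 Smad genes at the 3 days, beside 1945, 3738 and 4005 of 18279 genes, and DESeq2 called 3 receptor genes and 2 Smad genes over the days. With the replicate block 2 receptor genes were called. Bmpr1a, a type I receptor, stood at 96.9 ± 4.56 CPM in day 0 controls and 97.0 ± 6.18 in KO lines, and at 151.9 ± 4.80 and 182.1 ± 36.9 CPM at day 3 (log2 fold changes 0.00 ± 0.30 and 0.26 ± 0.30). The type II receptor Bmpr2 gave -0.14 ± 0.33, -0.49 ± 0.33 and -0.09 ± 0.33 at the 3 days. Smad1 gave -0.42 ± 0.26, -0.52 ± 0.26 and -0.13 ± 0.26, Smad5 -0.09 ± 0.17, -0.22 ± 0.17 and 0.21 ± 0.17, and Smad4, the shared partner, -0.12 ± 0.21, -0.24 ± 0.21 and -0.10 ± 0.21. Id4, the remaining Id gene, gave -0.12 ± 0.33, -0.13 ± 0.38 and 0.01 ± 0.37. Their adjusted p-values ran from 0.272 to 1. Without line 19 at day 2 the day 2 values were -0.07 for Bmpr2, -0.23 for Smad1, -0.02 for Smad5, 0 for Smad4 and 0.21 for Id4 (adjusted p from 0.577 to 1). Of the other ligands, 0 of 11 tested were called at any day (1, 0 and 3 at an unadjusted p below 0.05; 1 with DESeq2 and 1 with the replicate block).

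Calls between genotypes were found among the other antagonists and the other targets. Of 16 antagonists and modulators tested, 2 were called at some day (0.853%, 1.6% and 5.18% of all genes by day). Cer1, which encodes the BMP, Nodal and Wnt antagonist Cerberus, had no count in the 3 KO samples at day 0 and 13, 36 and 18 counts in the controls (mean 0.64 CPM), at least 8.22-fold lower with a floor of 3 counts per library. At day 2 it had 5.46, 5.23 and 2.403 CPM in controls and 0.13, 0.08 and 0.04 CPM in KO lines (7, 1 and 1 counts), with a log2 fold change of -5.46 ± 0.51 (adjusted p = 0.000311; 0.00115 without line 19 at day 2). Both calls on Cer1 missed the threshold when a day was fitted alone (0.0629 and 0.0593). Bmper, which can inhibit or aid BMP signalling, was higher at day 3 with 0.73, 1.03 and 1.19 CPM in lines 14, 19 and 319 against 0.30, 0.27 and 0.39 CPM (1.60 ± 0.36, adjusted p = 0.0197), a call lost without any 1 of the 3 controls (0.0501 to 0.173).

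Of 16 other targets tested, 1 was called at day 0, 1 at day 2 and 4 at day 3, beside the 0.853%, 1.6% and 5.18% of all genes given above. Msx1, a homeobox gene of the neural plate border, had 0.70, 0.80 and 0.86 CPM in day 3 controls and 4.25, 5.12 and 7.63 CPM in lines 14, 19 and 319. The KO samples were several times above the controls in both backgrounds, with a log2 fold change of 2.83 ± 0.40 (adjusted p = 0.00207). It was 1.68 ± 0.40 at day 2 (adjusted p = 0.0451), a call that 9 of the 16 alternatives ended. Among them were the fit without line 19 at day 2 (1.71, 0.0558) and the replicate block, here limma with series as a correlated block (1.51, 0.0772). The day 3 call was lost without HM1 replicate 1 (0.0657) or HM1 replicate 2 (0.0603). Gata2, a factor of blood and non-neural ectoderm, was higher at day 3 (1.21 ± 0.27, adjusted p = 0.0195), and Hey1, a Notch and BMP target, was lower (-0.96 ± 0.20, adjusted p = 0.0151). Both calls were lost without any 1 of the controls or without line 14 (0.0512 to 0.149), that on Gata2 also in HM1-derived lines only (0.0796) and that on Hey1 with no background term (0.137). Zfp423, a cofactor of Smads, was higher at day 0 (0.98 ± 0.22, adjusted p = 0.0457), which was lost without any 1 of the controls (0.0783 to 0.482) or line 14 (0.168), with transcripts added up (0.0587) or with no background term (0.135).

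Cdx2, a trophoblast and posterior gene that is also on the marker list of trophoblast or surface ectoderm, was called higher at day 3 (3.26 ± 0.89, adjusted p = 0.0449). Its level was 0.24, 0.30 and 0.91 CPM in controls and 0.74, 0.51 and 19.7 CPM in lines 14, 19 and 319. One library, line 319, decided this value, which was 0.68 (adjusted p = 0.393) without it. The call was also lost without any 1 of the controls (0.219 to 0.239), with no filter, transcripts added up, no background term or HM1-derived lines only (0.0528 to 0.126) and with the replicate block (2.53, adjusted p = 0.118). Markers of trophoblast or surface ectoderm, Cdx2 included, summed to 39.99 to 105.9 CPM in KO samples and 119.7 to 269 CPM in controls at that day. In this list 5 of 6 markers had a lower KO mean and 1 was called lower, while Cdx2 was the 1 called higher. The part of these markers in the target calls was not tested.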

How the data were processed

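Messenger RNA was sequenced from 18 biological samples, each as 4 technical replicates. The deposited files hold raw counts per Ensembl transcript, made by the authors with STAR 2.4.0k, SAMtools, HTSeq, bcl2fastq 2.17.1.14 and mm10 among the names in the submitters' processing notes, which give no role or order. Annotation release and strand setting are not given in the sources used here.

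Transcripts were named and placed with the GENCODE M21 annotation (GRCm38), which matched 108309 of 110379 transcripts; unmatched ones held 1.43% to 2.46% of counts and were left out. Counts over all transcripts came to 2.68 to 2.97 times those of the most counted transcript of each gene. A gene was represented by that 1 transcript, so that a read shared by several is not added repeatedly. Technical replicates were summed, since they differed by no more than about counting error (chi-square per degree of freedom 1.01 to 1.03 over transcripts with at least 40 counts).

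The test was edgeR 4.0.16 under R 4.3.3: TMM scaling, filterByExpr on the 6 groups, a robust quasi-likelihood fit of genotype and day with a term for genetic background over all 18 samples (11 residual degrees of freedom, common biological coefficient of variation 0.246), and Benjamini-Hochberg adjustment over 18279 genes, called below 0.05. The script was tested on simulated data. Alternatives were DESeq2 1.42.0 and limma 3.58.1 among others. Samples of a series of cells are the same line followed over days, so days are paired. Their deviations from the group means correlated above 0.1 in 16 of 18 pairs of days (range -0.088 to 0.4). The fit with this block is given beside the report's values where it changed a call. For changes between days it was edgeR with a term for each series. For KO against control within a day it was limma with series as a correlated block (consensus correlation 0.009), so method and block changed together.

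The members, the lists of other pathway genes and the marker lists were chosen with earlier results of these data known. Named genes are the members, Nup133, listed genes called between genotypes, Smad1, Smad5, Smad4, Bmpr1a, Bmpr2 and Id4 whatever their result, and the 5 genes most like Id1 and Bmp4. Embryonic stem cell, epiblast-like, neural progenitor, primitive endoderm, feeder fibroblast, mesoderm and trophoblast or surface ectoderm markers were summed.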

Additional observations from a re-analysis of the deposited data

Results flagged for a closer look

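The items here are genes of the pathway lists whose difference between KO and control differed, in a test of that difference, between days or between backgrounds. Values are on the log2 scale with SE and adjusted p from edgeR's quasi-likelihood test.

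Between days, the KO difference of Cer1 changed between day 2 and day 3 (6.89 ± 0.79, adjusted p = 0.0035) and between day 0 and day 3 (9.04 ± 1.11, adjusted p = 0.0031). That last value depends on the prior count of the fit, since the KO samples held no Cer1 count at day 0. Controls rose to a mean of 4.36 CPM at day 2 and were at 0.06 CPM at day 3, where the KO lines held 0.16 CPM. For Bmper the change from day 0 to day 3 was 3.01 ± 0.48 (adjusted p = 0.01), from 1.18 CPM in KO lines against 3.12 CPM in controls to 0.98 against 0.32 CPM. For Msx1 it was 3.65 ± 0.55 (adjusted p = 0.0085), from 1.62 against 2.85 CPM to 5.66 against 0.79 CPM.

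Between backgrounds, the differences were (319 minus 1A4) minus (lines 14 and 19 minus HM1). They were 5.08 ± 0.71 for Gata3 (adjusted p = 0.019), 3.29 ± 0.41 for Dusp9 (0.013) and 2.82 ± 0.53 for Bmp8a (0.043) at day 0. Fst, which encodes follistatin, gave 3.77 ± 0.57 at day 2 (0.023). In each case line 319 held the highest level of its day. Gata3 stood at 6.63 CPM there and at most 0.84 CPM in the other day 0 samples, and Bmp8a at 6.30 CPM and at most 1.08 CPM. Dusp9 stood at 199.2 CPM there and at most 35.2 CPM in the other day 0 samples, and Fst at 46.6 CPM at day 2 against at most 18.1 CPM. Each rests on 1 sample per blastocyst-derived group, and line 319 is labelled with a different sex chromosome set and extra chromosomes, so genotype, chromosome set and line cannot be told apart for it.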

How the results depend on the processing

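Of 1743 values that 109 single-gene fold changes took under the alternatives, 1566 kept direction and side of the threshold, 80 lost a call, 40 gained one and 57 changed sign, none of these called in either fit. Causes of these shifts were not tested. Low counts (Nog, Cer1, Bmp2) and 3 samples per genotype and day limit the precision. Over all genes, 156, 292 and 947 were called between genotypes at days 0, 2 and 3. DESeq2 called 554, 1406 and 2065, days fitted alone 244, 0 and 2547, the fit without a background term 119, 185 and 517, HM1-derived lines 313, 245 and 1127, and that without line 19 at day 2 380, 375 and 3007. Leaving out HM1 replicate 1 gave 47, 22 and 37, HM1 replicate 2 18, 25 and 17, 1A4 246, 117 and 355, line 14 32, 656 and 460, and line 319 407, 1378 and 2020.

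Members called between genotypes were 1, 2 and 0 at days 0, 2 and 3. With each day fitted alone they were 0, 0 and 2. At day 3 they were 3 with DESeq2, 3 in HM1-derived lines only and 2 without line 19 at day 2. Leaving out 1 replicate gave 0 to 2, 0 to 2 and 0 to 4, and, for the control step from day 0 to day 2, 4 to 8. Over all genes, that step then had 2831 to 8905 calls. Changes of the KO difference between days numbered 0, 1 with DESeq2 and 0 to 2 with 1 replicate left out. Differences by background numbered 0, and 4 with no filter, beside 728, 1039 and 465 of all genes at days 0, 2 and 3. With line 19 at day 2 or an HM1-derived replicate left out, a further group held 1 sample. Some member calls appeared in such fits and are not counted.

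Genes called at any day among the other ligands (0) were 1 with DESeq2, days alone, without line 19 at day 2 and with the replicate block, and 0 to 1 with 1 replicate left out. Receptors (0) were 3 with DESeq2, 2 with no filter, days alone, without line 19 at day 2 or the replicate block, 1 with the longest transcript or HM1-derived lines only, and 0 to 2 on leaving out. Smad genes (0) were 2 with DESeq2, 1 with transcripts added up, 3 with days alone, 4 without line 19 at day 2 and 0 to 1 on leaving out. Antagonists (2) were 4 with DESeq2 or no filter, 5 in HM1-derived lines only or without line 19 at day 2, and 1 to 6 on leaving out. Other targets (5) were 8 with DESeq2 or without line 19 at day 2, 3 with transcripts added up, 2 with no background term, and 0 to 7 on leaving out.

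The replicate block with a term for each series called Smad6 from day 0 to day 2 in controls (-0.882) and Nog from day 2 to day 3 in KO lines (2.421). For KO against control, limma with series as a correlated block ended Msx1 at day 2 (1.511) and Cdx2 at day 3 (2.528), and brought in Bmper at day 0 (-1.421). Among the 109 single-gene fold changes no other call changed.

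Signs changed as follows, all in uncalled values. In HM1-derived lines only: Bmp2 from day 0 to 2 in controls -0.057, Id3 from day 2 to 3 in controls -0.258, Id1 at day 3 0.072, Bambi at day 2 0.031, Cdx2 at day 2 -0.251, Hey1 at day 0 0.043, Smad1 at day 3 0.044, and Smad4 0.106 at day 0 and 0.049 at day 3. Without line 19 at day 2: Zfp423 0.124, Cdx2 -0.302, Smad4 0, Bmpr1a 0.154 and Id4 0.205 at day 2, Id4 -0.007 at day 3 and Bmpr1a -0.002 at day 0. With the replicate block: Id3 from day 2 to 3 in controls -0.002, Zfp423 at day 2 0.025, Id4 at day 3 -0.020 and Bmpr1a at day 0 0. Bmpr1a at day 0 was also 0 with RLE scaling or DESeq2, -0.008 with no filter and -0.006 with transcripts added up. Id3 from day 2 to 3 in controls was -0.036 with no background term, Cdx2 at day 2 -0.015 with no filter and Id4 at day 3 -0.011 with that day alone.

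On leaving out 1 replicate in turn, the ranges that crossed 0 were these. Controls between days: Bmp2 from day 0 to 2 -0.080 to 0.508, Id3 from day 2 to 3 -0.268 to 0.200, Nog from day 2 to 3 -0.204 to 0.015. Day 0: Id3 -0.364 to 0.027, Chrd -0.044 to 0.139, Hey1 -0.181 to 0.073, Smad4 -0.209 to 0.115, Bmpr1a -0.073 to 0.049, Id4 -0.391 to 0.020. Day 2: Bmp4 -0.619 to 0.001, Bambi -0.200 to 0.019, Zfp423 -0.258 to 0.130, Cdx2 -0.789 to 0.437, Bmpr1a -0.569 to 0.150, Id4 -0.690 to 0.200. Day 3: Id2 -0.185 to 0.480, Smad1 -0.213 to 0.036, Smad4 -0.175 to 0.058, Bmpr2 -0.206 to 0.052, Id4 -0.178 to 0.058.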

Other observations

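The other genes of the pathway also moved between days. Of 16 other targets tested, 10 fell and none rose from day 0 to day 2 in controls, with a median log2 fold change of -1.99 beside 0.01 over all genes, and 10 fell and none rose in KO lines (median -1.46 beside 0.06). Of all genes 15.5% fell and 19.7% rose in controls, and 15.1% fell and 20.8% rose in KO lines. From day 2 to day 3, 6 rose in controls and 10 in KO lines, and none fell (medians 0.99 and 1.55 beside 0.00 and 0.00), where 12.5% of all genes rose and 8.92% fell in controls and 17.7% rose and 16% fell in KO lines. Those that rose in controls were Dlx3, Gata2, Msx2, Atoh8, Hey1 and Zfp423. Of 11 other ligands tested, 5 rose and 1 fell from day 2 to day 3 in controls, and 7 rose and 1 fell in KO lines, beside those same shares of all genes. Gdf3, a ligand of pluripotent cells, fell in both genotypes at both steps (in controls by 1.05 ± 0.28 and then by 0.87 ± 0.28). Gdf6 rose by 3.20 ± 0.43 in controls (adjusted p = 9.61e-05) and by 2.16 ± 0.44 in KO lines (adjusted p = 0.00185) from day 2 to day 3. Rgma, a BMP co-receptor, rose by 3.54 ± 0.36 and by 3.45 ± 0.35 in the same step (adjusted p = 6.24e-06 and 5.66e-06), to 68.8 ± 11.3 CPM in controls and 108.8 ± 8.48 CPM in KO lines. Gdf3, Gdf6 and Rgma were picked for mention after their values were seen.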
